A study of Homo sapiens with 4 samples.

Results

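AIRE1 is one of a pair of clone-derived HEK293 lines (human embryonic kidney cells) that stably express wild-type AIRE, the autoimmune regulator protein. It was set against NC, the HEK293 line that stably expresses yellow fluorescent protein. The comparison rests on 6 of the 12 arrays of the study, 3 AIRE1 and 3 NC, chosen by the labels. The other 6 arrays come from AIRE2, the second clone with wild-type AIRE, and from AIRE-D312A, a line whose AIRE carries the mutation D312A in its first PHD finger. In all 4 lines the transgene is driven by the human cytomegalovirus immediate-early promoter. HEK293 is the shared background of every line. Each line was studied in 3 independent experiments, and each was measured on 3 Illumina bead arrays. Since AIRE1 is 1 clone and NC 1 line, no p-value covers the spread between clones. Each rests on the spread among arrays within the 4 lines, after the part shared by arrays of one replicate number is removed. An effect of AIRE cannot be told apart from any other difference between these lines.

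AIRE works in the nucleus of epithelial cells in the thymic medulla. It is known there for turning on genes that are otherwise restricted to other tissues, so that developing T cells meet their products. It acts at sites of stalled transcription and binds unmodified histone H3 through its first PHD finger. HEK293 cells lack the thymic setting and are a common host in which to express AIRE from a transgene. The question here is which genes set AIRE1 apart from NC, and which of those changes AIRE2 does not share.

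Levels are given as log2 normalised intensities, and differences are log2 differences. Levels of different genes cannot be ranked, since each probe has its own response. A gene was called when its limma adjusted p was under 0.05 in a fit of all 12 arrays with the replicate number as a block. A difference is followed by its standard error (SE). By principal component analysis, 39.4% of the variance lay along a first component that mainly separated the replicate 2 arrays of every line from the others. The detection column of the AIRE-D312A replicate 3 array equalled that of AIRE1 replicate 3 in 100% of probes and was not used. Of 13 HEK293 markers on the arrays, 12 were detected on all arrays of every line and PAX2 on none. The summed linear level of this marker list was 6240 to 8501 in AIRE1, 8376 to 14196 in AIRE2, 8840 to 10885 in AIRE-D312A and 10948 to 15361 in NC. Such a sum follows its brightest probes, among them that of VIM, and does not show that all markers moved together. Of 21 markers of blood, endothelial, fibroblast, keratinocyte and liver cells, 14 were undetected on all AIRE1 arrays and 17 on all NC arrays. Their summed level was 694 to 814 in AIRE1 and 660 to 786 in NC. PTPRC, CD3E, CD14, PECAM1, CDH5, KRT5, KRT14 and ALB were undetected on every array, while the endothelial gene VWF was detected on all arrays of AIRE1 and AIRE2 and on none of NC.

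The AIRE transcript was examined first. Its level was 9.03, 8.65 and 9.01 in AIRE1, against 8.70, 8.04 and 8.78 in AIRE2 and 4.36, 4.55 and 4.40 in NC. AIRE1 did not overlap with NC, whose arrays all lay under the detection limit. AIRE1 was at least 15.6-fold above NC (limma adjusted p = 6.18e-09). AIRE1 exceeded AIRE2 by 0.39 ± 0.14 (SE), which was not called (adjusted p = 0.0957).

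Against NC, AIRE1 had 1507 higher and 1217 lower genes, of 11947 tested. These are 12.6% and 10.2% of all genes. At 2-fold or more, 191 genes (1.60%) were higher and 63 (0.527%) lower. The median difference over all genes was 0.0059. The median size of the SE was 0.09. Without the replicate block the counts were 623 higher and 366 lower. With each array centred on its median in place of quantile normalisation, they were 1641 and 293, and the median of all genes moved to 0.14. The split between higher and lower genes therefore depends on the scaling.

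Most of the AIRE1 response could not be told apart from that of AIRE2. Among the 1507 genes higher than in NC, the AIRE1 minus AIRE2 difference was not called for 1187 (78.8%), and 88 (5.84%) were lower in AIRE1 than in AIRE2. Among the 1217 lower genes it was not called for 869 (71.4%), and 36 (2.96%) were higher in AIRE1 than in AIRE2. That left 544 genes that differed in AIRE1 from both NC and AIRE2 in the same direction, termed AIRE1-distinct here. Of these, 232 (1.94% of all genes tested) were higher and the others (2.61%) lower. Among the 232, 12 genes were detected in AIRE1 alone and entered the test only through it, which favours a higher call. Directly against AIRE2, AIRE1 had 895 higher (7.49%) and 698 lower genes (5.84%), of which 18 (0.151%) and 24 (0.201%) passed 2-fold. Both contrasts contain the AIRE1 arrays, so a shift of those arrays enters both. Without the block, 46 higher and 57 lower AIRE1-distinct genes were called, and all of them were among the 544. With median centring the counts were 168 and 79, of which 128 and 77 were shared.

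Most of the 12 genes raised furthest above NC were not called against AIRE2, while most of the 12 most lowered genes were AIRE1-distinct. After AIRE, the highest was LPL, the lipase that frees fatty acids from lipoproteins, with 8.63, 8.09 and 8.76 in AIRE1, against 9.20, 7.51 and 8.90 in AIRE2 and 5.85, 5.04 and 5.70 in NC. Both clones lay above NC and overlapped each other. AIRE1 exceeded NC by 2.97 ± 0.17 and stood at -0.04 ± 0.17 from AIRE2 (limma adjusted p = 4.92e-07 and 0.907). The vesicle-transport gene MAL2 (2.61 from NC), LCN15 (2.60), the matrix protein THBS2 (2.40), the aldo-keto reductase AKR1C3 (2.37) and TKTL1 (2.37) were likewise not called against AIRE2. The AKR1C3 probe may read related reductases. The tight-junction gene CLDN1 was at least 4.7-fold and TMEM47 at least 4.19-fold above NC, where no array detected them, with no call against AIRE2. LY6G6D, at least 4.5-fold above NC, and ALDH1A1 were the AIRE1-distinct ones among these 12 genes, and neither was called against AIRE2 without the block (adjusted p = 0.152 for LY6G6D). The small chaperone HSPB8 was 2.44 above NC and stood at -0.70 from AIRE2, with overlapping arrays (adjusted p = 0.0461, or 0.527 without the block). That call was lost without any 1 AIRE1 or NC array. Of the 12 most lowered genes, NEFM, TNFRSF10A, TNFRSF10A-DT, SORCS1, ID2, MSX2 and RGS16 were AIRE1-distinct. The matricellular gene CCN3 (-2.00), CRACR2B (-1.78), POMZP3 (-1.69), the kinase MATK (at least 2.44-fold lower) and the phosphatase DUSP4 (-1.48) were not called against AIRE2.

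**Figure D1:**
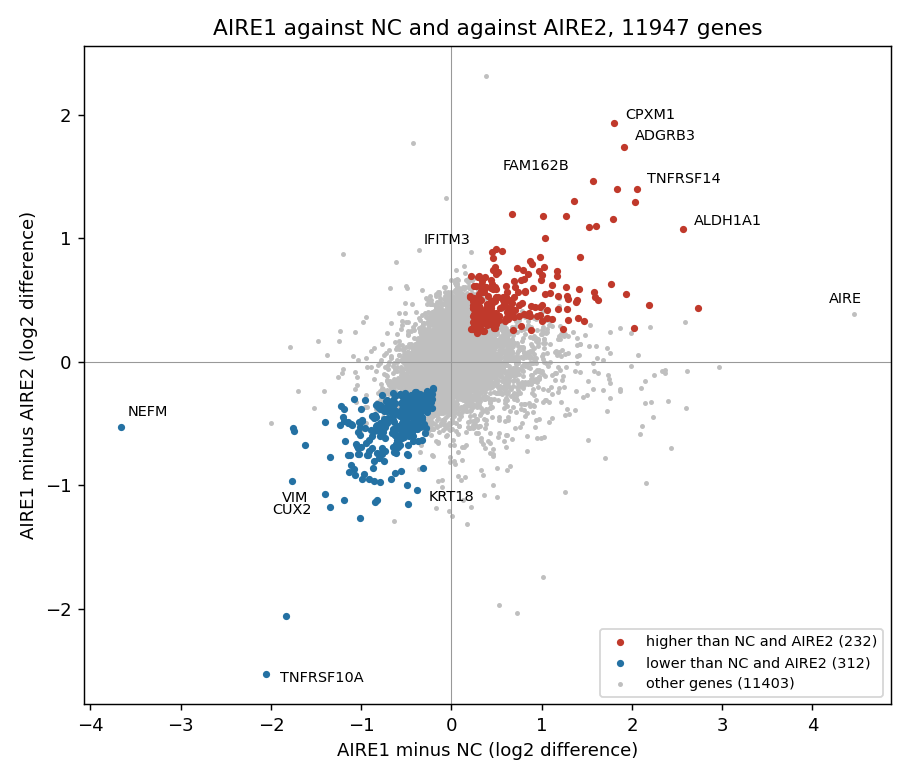
Log2 difference of AIRE1 from NC (horizontal axis) and from AIRE2 (vertical axis) for 11947 genes, 1 point per gene, estimated from 3 arrays per line. Red points are the 232 genes higher than in both lines, blue points those lower than in both, and grey points all other genes; AIRE lies far right but near 0 vertically, while TNFRSF10A and CPXM1 lie far out on both axes.

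The AIRE1-distinct genes moved by modest amounts. The 232 higher genes had a median difference of 0.49 from NC and 0.45 from AIRE2, while AIRE2 itself lay 0.07 and AIRE-D312A 0.19 from NC. With the 44 of them that no NC array detected set to their lower bound, the medians were 0.44 and 0.44. The AIRE1-distinct lower genes had medians of -0.55 and -0.46, while AIRE2 lay at -0.06 and AIRE-D312A at -0.21. Only 14 higher (0.117%) and 6 lower genes (0.0502%) passed 2-fold in both contrasts. Of the 232 higher genes, AIRE2 was also above NC for 65, below NC for 21, and not called for 146. Among the lower genes, AIRE2 was also below NC for 72, above NC for 11, and not called for 229. AIRE-D312A was called lower than NC for 126 of the lower genes, against 7.74% of all genes, and higher than NC for 77 of the 232, against 8.72%. The AIRE-D312A differences use the same NC arrays that helped to choose these genes. That favours calls in the same direction, so these counts do not measure how far the mutant line shares the changes.

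The strongest AIRE1-distinct increases were led by CPXM1, ADGRB3, TNFRSF14 and KCTD8. CPXM1, a secreted member of the metallocarboxypeptidase family, had 6.96, 6.43 and 6.88 in AIRE1, against 4.81, 4.59 and 5.05 in AIRE2 and 4.76, 4.86 and 5.23 in NC. All 3 AIRE1 arrays stood far above every other array. The difference was 1.80 ± 0.10 from NC and 1.94 ± 0.10 from AIRE2 (SE, n = 3, limma adjusted p = 4.92e-07 and 2.17e-06). ADGRB3, an adhesion G protein-coupled receptor of brain, had 6.25, 6.12 and 6.49 in AIRE1, against 4.59, 4.44 and 4.62 in AIRE2 and 4.41, 4.27 and 4.46 in NC. It was undetected in NC and AIRE2, so AIRE1 was at least 2.55-fold and 2.63-fold higher (adjusted p = 5.88e-08 and 5.95e-07). TNFRSF14, a receptor for the cytokine LIGHT that also binds the inhibitory receptor BTLA, had 6.89, 6.55 and 6.83 in AIRE1, against 5.61, 4.76 and 5.69 in AIRE2 and 4.79, 4.37 and 4.96 in NC. AIRE1 lay above every other array, while AIRE2 and NC overlapped. AIRE1 exceeded NC by 2.05 ± 0.12 and AIRE2 by 1.40 ± 0.12 (adjusted p = 5.66e-07 and 5.59e-05). KCTD8, an auxiliary subunit of GABA-B receptors, had 6.89, 6.95 and 6.85 in AIRE1, against 5.53, 5.69 and 5.59 in AIRE2 and 4.97, 4.95 and 4.68 in NC. Again the lines did not overlap, with differences of 2.03 ± 0.10 and 1.29 ± 0.10 (adjusted p = 1.78e-07 and 3.31e-05).

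FAM162B rose by 1.57 against NC and 1.47 against AIRE2, and AIRE2 lay close to NC at 0.10. The oxidoreductase-related gene HTATIP2 rose by 1.83 and 1.40. The cadherin CDH10 was at least 2.12-fold above NC, where no array detected it, and 1.10 above AIRE2. The LIM-only gene LMO3 was at least 1.7-fold above NC, and the viral host-range factor FAM111A at least 2.3-fold. PLAC9, which encodes a small secreted protein, was detected in AIRE1 alone, at least 1.65-fold above NC and 1.71-fold above AIRE2. PLAC9 entered the test only through AIRE1, which favours a higher call. EN2, a homeobox gene of the midbrain-hindbrain boundary, had 9.54, 9.55 and 9.48 in AIRE1, against 8.25, 8.56 and 8.21 in AIRE2 and 8.41, 8.54 and 8.57 in NC. AIRE2 and NC overlapped each other, and AIRE1 lay about 1 unit above both (1.02 ± 0.09 and 1.18 ± 0.09). The tyrosine kinase FES followed with 1.03 and 1.01.

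ALDH1A1, an enzyme that makes retinoic acid from retinaldehyde, was raised in a graded way. Its level was 7.39, 6.42 and 7.01 in AIRE1, against 6.20, 5.06 and 6.32 in AIRE2, 4.95, 4.83 and 5.05 in AIRE-D312A and 4.38, 4.38 and 4.35 in NC. It was undetected in NC, so AIRE1 was at least 4.01-fold and AIRE2 at least 1.9-fold above NC. The AIRE1 minus AIRE2 difference was 1.08 ± 0.21 (adjusted p = 0.00642, but 0.0949 without the block). RAC2, a gene known mainly from blood cells, had 9.83, 9.21 and 10.06 in AIRE1, against 9.28, 7.49 and 8.80 in AIRE2 and 8.83, 7.40 and 9.08 in NC. All AIRE1 arrays lay above NC, but the lowest AIRE1 array lay under the highest AIRE2 array. RAC2 differed by 1.27 from NC and 1.18 from AIRE2, and neither call held without the block (adjusted p = 0.163 and 0.302). All 15 of the strongest higher genes stood above NC and above AIRE2 in 3 of 3 replicate pairs. Their choice by the size of these same differences largely fixed that outcome. Without the block, 12 of the 15 stayed AIRE1-distinct. The exceptions were RAC2, HLA-DRA and ALDH1A1.

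**Figure D2:**
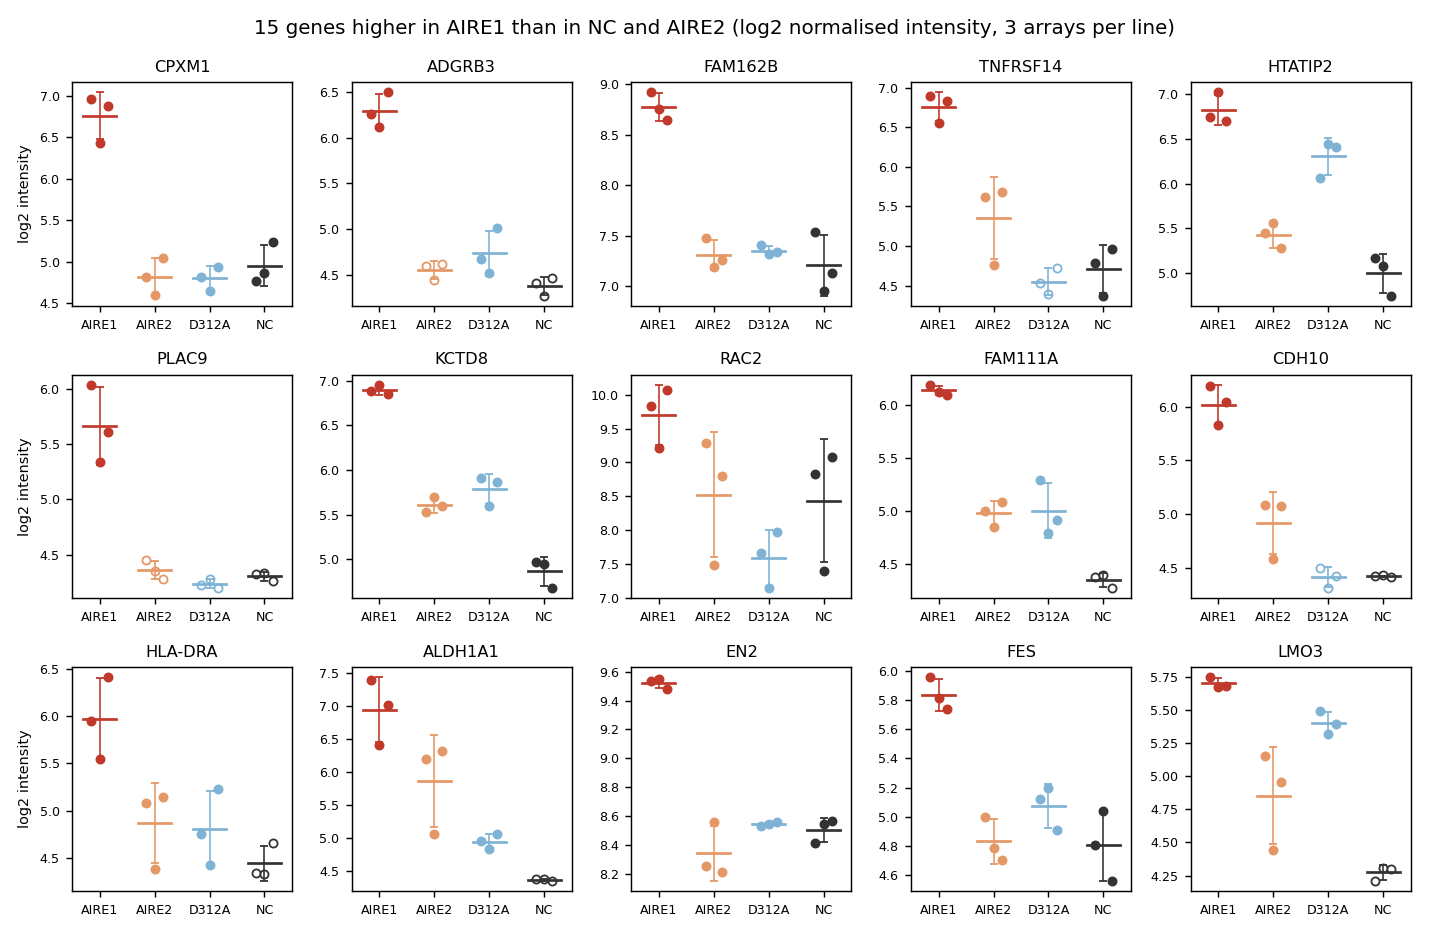
Log2 normalised intensity of the 15 strongest AIRE1-distinct higher genes on each array, in AIRE1, AIRE2, AIRE-D312A (D312A) and NC; points are replicates 1 to 3 from left to right, bars the mean and whiskers the SD (n = 3), and open points mark lines where no array detected the gene. AIRE1 stands highest in every panel, and CPXM1, ADGRB3 and PLAC9 sit near the floor in the other lines.

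TNFRSF10A led the AIRE1-distinct decreases. It encodes death receptor 4, a receptor for the apoptosis-inducing ligand TRAIL, and had 4.58, 4.49 and 4.45 in AIRE1, against 7.06, 7.05 and 7.01 in AIRE2, 6.64, 6.58 and 6.65 in AIRE-D312A and 6.80, 6.29 and 6.59 in NC. The gene was detected on every array of AIRE2, AIRE-D312A and NC and on no AIRE1 array. AIRE1 was therefore at least 3.34-fold below NC and 4.65-fold below AIRE2 (limma adjusted p = 9.64e-08 and 8.9e-08). In AIRE2 it moved the other way, by 0.48 against NC. TNFRSF10A-DT, the non-coding transcript that starts beside it and runs in the opposite direction, had 4.40, 4.36 and 4.95 in AIRE1, against 6.53, 6.73 and 6.64 in AIRE2 and 6.48, 6.26 and 6.48 in NC. It was detected on 1 of 3 AIRE1 arrays, and differed by -1.84 ± 0.12 from NC and -2.06 ± 0.12 from AIRE2. Both neighbours were lower in AIRE1 than in every other line shown here.

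VIM, the intermediate filament protein vimentin of mesenchymal and cultured cells, had 11.39, 10.97 and 11.74 in AIRE1, against 12.89, 11.78 and 12.65 in AIRE2 and 12.82, 12.46 and 13.01 in NC. All AIRE1 arrays lay under all others, at -1.40 ± 0.14 from NC and -1.07 ± 0.14 from AIRE2 (adjusted p = 2.46e-05 and 0.000783). The AIRE2 call was lost without the block (adjusted p = 0.0705). BASP1, a membrane protein of neuronal growth cones, had 10.94, 10.69 and 11.31 in AIRE1, against 12.53, 11.58 and 12.20 in AIRE2 and 12.31, 11.79 and 12.40 in NC. It fell without overlap in AIRE1, by 1.19 against NC and 1.12 against AIRE2. MYO10, the motor that moves along filopodia, had 9.61, 9.56 and 9.71 in AIRE1, against 10.72, 10.38 and 10.53 in AIRE2 and 10.78, 10.59 and 10.72 in NC. AIRE1 did not overlap with either line, and the gene fell by 1.07 and 0.91. The serine protease PRSS23 fell by 0.97 and 0.91, the palmitoyltransferase family gene ZDHHC11 by 0.99 and 0.95, and TRIP13, an ATPase of the spindle checkpoint, by 0.86 and 0.86. ZDHHC11 has a close relative, so its probe may read both.

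CUX2, a homeobox gene of cortical neurons, had 5.64, 5.52 and 6.22 in AIRE1, against 7.14, 6.56 and 7.22 in AIRE2, 5.73, 5.15 and 6.22 in AIRE-D312A and 7.29, 6.77 and 7.35 in NC. AIRE1 and AIRE-D312A were both low and overlapped, while AIRE2 and NC overlapped at a higher level. The difference was -1.34 ± 0.12 from NC and -1.18 ± 0.12 from AIRE2 (adjusted p = 8.2e-06 and 0.000125, with 0.0581 against AIRE2 without the block). AMOT, a scaffold that binds the co-activator YAP, had 6.85, 6.37 and 7.39 in AIRE1, against 8.59, 7.34 and 8.47 in AIRE2 and 8.18, 7.01 and 8.44 in NC. The lines overlapped across experiments, yet AIRE1 minus NC was -1.34 to -0.63 in the 3 replicate pairs. The calls for AMOT, the matrix protease ADAMTS1, the secreted factor SERPINF1, ID1 and DEPP1 rested on the pairing. Their adjusted p-values against NC without the block were 0.227, 0.385, 0.103, 0.107 and 0.432. SORCS1, a sorting receptor of neurons, was at -1.77 ± 0.16 from NC and -0.97 ± 0.16 from AIRE2. Without the block, its AIRE2 call was lost (adjusted p = 0.312). All 15 of the strongest lower genes stood below NC and below AIRE2 in 3 of 3 pairs, which their choice by these differences largely fixed. Without the block, 7 of the 15 stayed AIRE1-distinct. These 7 were TNFRSF10A, TNFRSF10A-DT, BASP1, ZDHHC11, MYO10, PRSS23 and TRIP13.

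**Figure D3:**
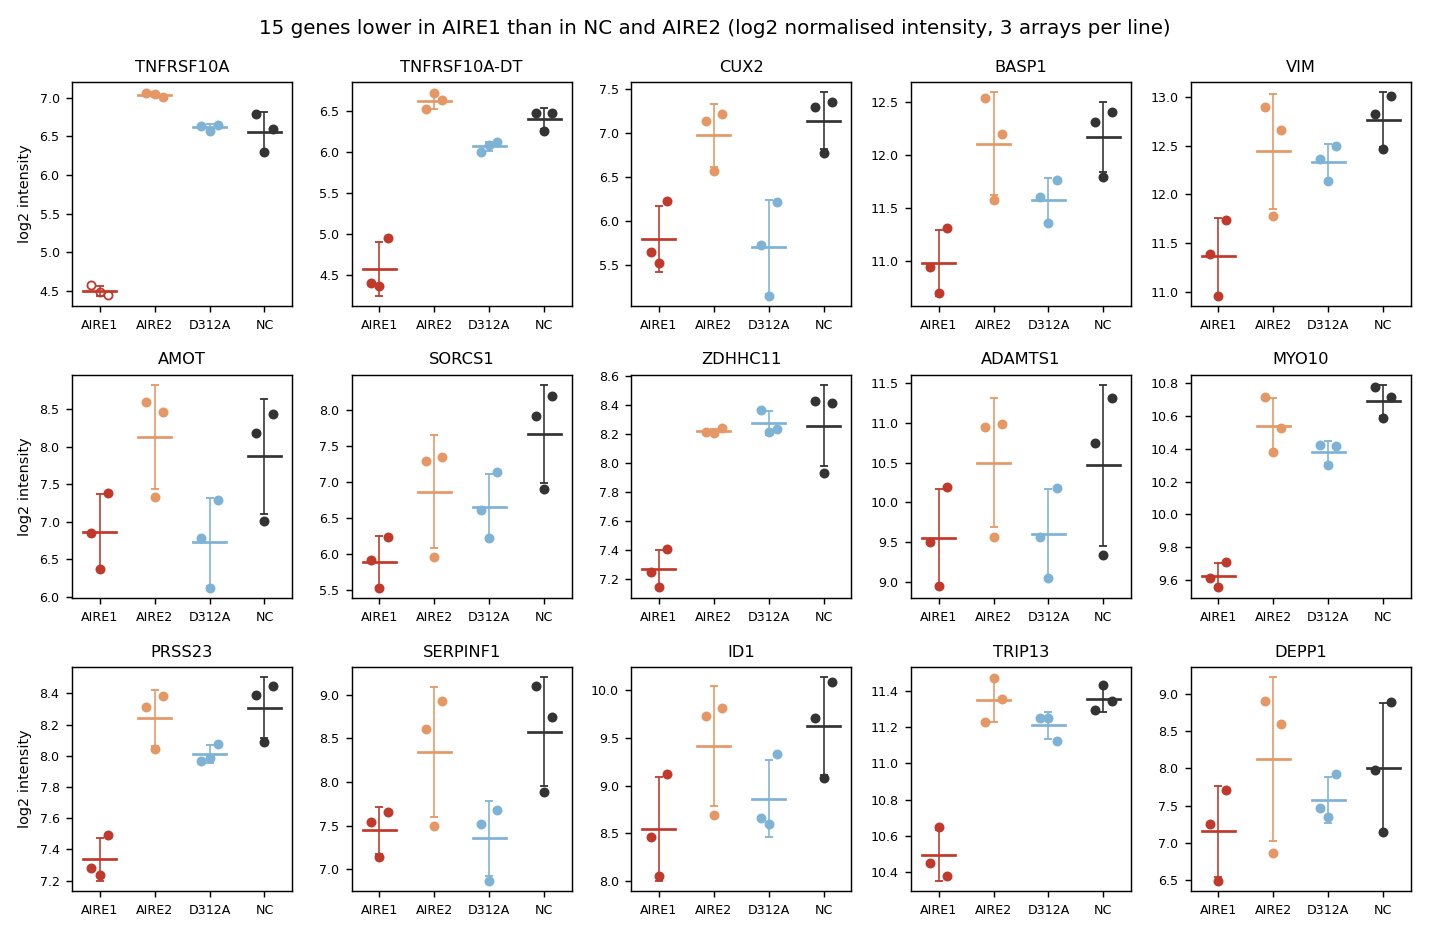
Log2 normalised intensity of the 15 strongest AIRE1-distinct lower genes on each array, in AIRE1, AIRE2, AIRE-D312A (D312A) and NC; points are replicates 1 to 3 from left to right, bars the mean and whiskers the SD (n = 3), and open points mark lines where no array detected the gene. TNFRSF10A lies at the floor in AIRE1 alone, and in AMOT, ADAMTS1 and DEPP1 the replicate 2 arrays (middle points) are low in every line, and the lines overlap.

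Gene lists are described next, and their AIRE1-distinct members rest largely on the pairing of arrays. Of 59 such members, 9 stayed distinct without the block, namely CDH2, EYA1, HOXD10, HOXD11, IFITM3, MAP1B, NKD2, VWF and ZEB2. The others lost their call against AIRE2, NC or both. The list counts below are to be read beside the shares of all genes tested. Of these, 12.6% were higher and 10.2% lower than in NC, and 1.94% and 2.61% were AIRE1-distinct. Filament and HEK293 identity genes moved in both directions. Of 15 measured intermediate filament genes, 4 were higher and 4 lower than in NC, and 3 were AIRE1-distinct, all lower. NEFM, a neurofilament subunit, was the most strongly lowered gene of the comparison, with 5.39, 5.09 and 5.23 in AIRE1, against 5.96, 5.82 and 5.51 in AIRE2 and 9.15, 8.76 and 8.79 in NC. AIRE1 did not overlap with either line, and stood at -3.66 ± 0.12 from NC and -0.53 ± 0.12 from AIRE2, the second difference with adjusted p = 0.0134, or 0.0979 without the block. AIRE-D312A had 5.16, 5.43 and 5.15, overlapped with AIRE1 and lay at -3.65 from NC. KRT18, a keratin of simple epithelium, had 6.25, 6.68 and 6.28 in AIRE1, against 7.24, 7.62 and 7.49 in AIRE2 and 6.59, 7.01 and 6.75 in NC. AIRE1 was below AIRE2 by 1.04 without overlap, while against NC the arrays overlapped and the fall of 0.38 was lost without the block (adjusted p = 0.239). Its usual partner KRT8 rose by 0.77 against NC. All 12 measured HEK293 markers were called against NC, 8 lower and 4 higher, and 5 of the lower were AIRE1-distinct. These were VIM, NEFM, KRT18, EYA1 and the cadherin CDH2, which fell by 0.51 against NC and 0.60 against AIRE2. HOXD10 was AIRE1-distinct in the other direction (0.64 and 0.49). The list's median was -0.50, against 0.0059 over all genes. The lower summed level of these markers in AIRE1, given above, moves with this, and its part in other results was not tested.

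The BMP and TGF-beta list held 6 AIRE1-distinct members. BMP receptors signal through SMAD proteins, which turn on the ID genes, and ID proteins hold basic helix-loop-helix factors inactive. Of 31 measured members, 6 were higher and 13 lower than in NC, with a median of -0.22. Under median centring that median was -0.02, close to 0 and below the centre of all genes. All 4 ID genes were lower than in both NC and AIRE2. ID1 had 8.46, 8.05 and 9.13 in AIRE1, against 9.74, 8.69 and 9.82 in AIRE2 and 9.71, 9.08 and 10.09 in NC. ID2 had 9.72, 9.20 and 10.48 in AIRE1, against 10.42, 9.79 and 10.78 in AIRE2 and 11.75, 10.98 and 11.94 in NC. For ID1 the AIRE1 arrays overlapped with NC and AIRE2, for ID2 with AIRE2 alone, and within each replicate number AIRE1 was the lowest of the 3 lines. ID1 stood at -1.08 ± 0.14 from NC and -0.87 ± 0.14 from AIRE2, and ID2 at -1.76 ± 0.13 and -0.53 ± 0.13. ID3 was at -0.63 and -0.49, and ID4 at -0.86 and -0.80. The receptor SMAD gene SMAD9 also fell (-0.66 and -0.46), while the inhibitory SMAD7 rose (0.33 and 0.56). For ID1 and ID2, the AIRE2 contrast was not called without the block (adjusted p = 0.311 and 0.637), and of the whole list 3 higher and 4 lower members were called against NC in that fit. BMP2, a ligand, stood at -0.79 and SMAD6 at -1.06 against NC, with no call against AIRE2.

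WNT and ERK signalling genes leaned lower. WNT ligands act through Frizzled receptors and beta-catenin on TCF and LEF factors. Of 33 measured WNT members, 13 were lower and 3 higher than in NC, with a median of -0.19 (-0.05 under median centring), and 4 were AIRE1-distinct, all lower. The feedback inhibitor NKD2 stood at -0.76 from NC and -0.73 from AIRE2. The receptor FZD7 stood at -0.58 and -0.67, and the transcription factor LEF1 at -0.55 and -0.27. CCND1, the cyclin that drives entry into the cell cycle, fell by 1.22 against NC and by 0.36 against AIRE2. The second call was not kept without AIRE1 replicate 1, AIRE1 replicate 2, AIRE2 replicate 2 or AIRE2 replicate 3. Of 22 measured ERK feedback and immediate early genes, 7 were lower and 1 higher than in NC. The phosphatase DUSP5 and the inhibitor SPRY1 were AIRE1-distinct, at -0.73 and -0.46 from NC and -0.49 and -0.44 from AIRE2. The homeobox gene MSX2, a BMP-responsive factor, had 6.27, 6.38 and 6.76 in AIRE1, against 6.91, 7.28 and 6.90 in AIRE2 and 8.25, 8.33 and 8.05 in NC. AIRE1, AIRE2 and NC formed separate steps, and the AIRE1 minus AIRE2 step of -0.56 ± 0.13 was lost without the block (adjusted p = 0.0939).

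Interferon-stimulated genes rose in AIRE1 but hardly set it apart from AIRE2. These genes are known to be induced by interferon through STAT and IRF factors, which bind the interferon-stimulated response element. Of 27 measured members, 16 were higher and 4 lower than in NC, with a median of 0.39, or 0.34 with undetected members at their bound. Only 2 were AIRE1-distinct, both higher. IFITM3, a membrane protein that blocks virus entry, had 7.27, 7.16 and 6.99 in AIRE1, against 6.23, 6.29 and 6.16 in AIRE2, 5.59, 5.70 and 5.68 in AIRE-D312A and 6.69, 6.65 and 6.62 in NC. AIRE1 stood above, and AIRE2 and AIRE-D312A below, all NC arrays, with no overlap. The difference was 0.49 ± 0.08 from NC and 0.91 ± 0.08 from AIRE2 (limma adjusted p = 0.000738 and 4.68e-05). IFI30, a thiol reductase of antigen processing, was at 0.39 and 0.44. The RNA sensor IFIH1 and the synthetase OAS3, both undetected in NC, were at least 3.85-fold and 3.73-fold higher in AIRE1, and AIRE1 minus AIRE2 was -0.10 ± 0.10 and -0.21 ± 0.10 (adjusted p = 0.555 and 0.218). The 250 bases before the start of IFITM3 and OAS3 show GAAA and GAAA separated by any 2 bases, a core of the interferon-stimulated response element, in both a distinct and a shared gene. Sequences are from RefSeq (GRCh38.p14), written 5′ to 3′ on the gene's strand, with matches in capitals.
IFITM3, chr11:320861-321110, minus strand: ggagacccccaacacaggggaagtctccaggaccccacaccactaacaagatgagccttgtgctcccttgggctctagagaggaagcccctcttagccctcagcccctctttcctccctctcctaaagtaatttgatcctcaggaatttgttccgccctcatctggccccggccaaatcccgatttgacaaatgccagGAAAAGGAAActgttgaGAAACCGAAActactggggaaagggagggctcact
OAS3, chr12:112938224-112938473, plus strand: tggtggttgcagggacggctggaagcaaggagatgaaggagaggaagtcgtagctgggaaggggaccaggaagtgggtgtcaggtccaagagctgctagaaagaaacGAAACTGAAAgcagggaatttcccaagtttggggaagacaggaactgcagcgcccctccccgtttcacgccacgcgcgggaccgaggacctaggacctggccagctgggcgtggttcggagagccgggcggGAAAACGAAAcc
The GAAA pair was searched on both strands in the 250 bases before the start. It was found in 16 of 24 interferon-stimulated genes with a promoter in the table (66.7%), in 7 of 190 AIRE1-distinct higher genes (3.68%), in 6 of 247 lower ones (2.43%), and in 2.15% of tested genes. Over all promoters of the table the share was 3.07%. A match is only a match of letters.

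Antigen presentation genes were often higher in AIRE1 than in NC. Of 19 measured antigen presentation genes, 13 were higher and none lower than in NC, with a median of 0.55, or 0.46 with undetected members at their bound; without the block 5 were higher. HLA-DRA, the alpha chain of HLA-DR, had 5.95, 5.55 and 6.41 in AIRE1, against 5.08, 4.39 and 5.15 in AIRE2, 4.76, 4.43 and 5.23 in AIRE-D312A and 4.34, 4.33 and 4.66 in NC. AIRE1 lay above every other array, at least 2.05-fold above NC, where no array detected it, and 1.10 ± 0.12 above AIRE2 (adjusted p = 0.00018, or 0.0579 without the block). B2M, the light chain of class I molecules, was the other distinct member, at 0.36 and 0.25. HLA probes may read related HLA genes. Of the 19 genes, 2 passed the detection filter through AIRE1 alone, which favours a higher call. That also holds for 2 core histone genes, 2 of the BMP and TGF-beta list and 3 matrix genes. Several other lists held 1 such gene. Of 11 chemokine and cytokine genes, 5 were higher than in NC, 3 without the block, and 6 were not called. The list's median was 0.12, or 0 with undetected members at their bound. In this list 2 genes passed the detection filter through AIRE1 alone, which favours a higher call. IL15, a growth factor of natural killer and memory T cells, had 7.0, 6.89 and 6.46 in AIRE1, against 6.28, 6.05 and 6.12 in AIRE2 and 4.98, 5.25 and 4.81 in NC. The lines formed separate steps, with AIRE1 above NC by 1.77 ± 0.11 and above AIRE2 by 0.63 ± 0.11 (adjusted p = 0.00351, or 0.0683 without the block). IL15RA, the receptor chain that presents IL15 and no member of that list, was detected in AIRE1 alone, at 0.42 above NC on the fitted scale and at least 1.01-fold above it as a bound. IL23A, a subunit of interleukin 23 and the other distinct member of the list, was also detected in AIRE1 alone, at least 1.05-fold above NC. Its call against AIRE2 was lost without the block, under median centring, without background correction and without any 1 AIRE1 array.

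Epithelial junction genes were often higher in AIRE1 than in NC, and more of them were lower than higher against AIRE2. Of 22 epithelial junction genes, 14 were higher and none lower than in NC (7 without the block), with a median of 0.42. Against AIRE2, 2 were higher and 6 lower. EPCAM, an epithelial adhesion molecule, had 6.64, 6.59 and 6.73 in AIRE1, against 8.82, 7.96 and 8.42 in AIRE2 and 5.74, 5.30 and 5.88 in NC. AIRE1 lay between NC and AIRE2, 1.02 ± 0.13 above NC and -1.74 from AIRE2. CD44, the hyaluronan receptor, had 7.11, 6.70 and 6.83 in AIRE1, against 9.23, 8.32 and 9.01 in AIRE2 and 6.25, 6.18 and 6.63 in NC. AIRE1 exceeded NC by 0.53 and fell short of AIRE2 by a difference of -1.97. The call against NC was lost without the block (adjusted p = 0.195), without the replicate 2 arrays, and without AIRE1 replicate 1, AIRE1 replicate 2 or NC replicate 1. The claudin CLDN12 (0.21 and 0.54) and the protease inhibitor SPINT1 (0.49 and 0.71) were AIRE1-distinct. For both genes the mean of AIRE2 lay below that of NC, which widened the difference from AIRE2. Neither gene was called against NC without the block (limma adjusted p = 0.186 and 0.173). Among 15 regulators of epithelial-mesenchymal transition, ZEB2, a repressor of E-cadherin, had 6.67, 6.71 and 6.61 in AIRE1, against 7.39, 7.30 and 7.53 in AIRE2 and 7.67, 7.74 and 7.65 in NC. Its AIRE1 arrays lay under all others, at -1.02 ± 0.08 and -0.74 ± 0.08 (adjusted p = 3.79e-06 and 0.000179). SNAI2 stood at -0.95 from NC but 0.37 from AIRE2, so it was lower in AIRE2 than in AIRE1. The SNAI2 call against AIRE2 was lost without the block, under median centring and in a fit of only the lines compared. Of the 15, 2 were higher and 2 lower than in NC, near the shares of all genes (12.6% and 10.2%).

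Matrix and protease genes held 1 AIRE1-distinct increase and 7 decreases, none of them called against AIRE2 without the block. Of 33 matrix genes, 8 were higher and 7 lower than in NC. The proteoglycan agrin (AGRN), the fibrillin FBN2, the laminin chain LAMC1 and the proteoglycan versican (VCAN) were AIRE1-distinct and lower, from -1.19 for FBN2 to -0.50 for AGRN against NC. SPARC, a collagen-binding matrix protein, was distinct and higher, by 1.03 and 0.77. Tenascin C (TNC) was at -1.20 from NC but 0.88 above AIRE2, and both calls were lost without the block. Among 25 protease and inhibitor genes, 4 were higher and 7 lower than in NC, and ADAMTS1, SERPINF1 and ADAM19 were distinct and lower. Of 19 integrin genes, 3 were higher and 5 lower, and ITGA2 and ITGA9 were distinct and lower, at -0.63 and -0.58 from AIRE2. Of 24 actin genes, 4 were higher and 7 lower, and CNN3, TAGLN2 and VCL were distinct and lower, with differences from NC of -0.21, -0.27 and -0.32.

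Developmental and neuronal genes were split. Of 24 measured HOX genes, 2 were higher and 11 lower than in NC, with a median of -0.25 (-0.03 under median centring). HOXD11 had 10.38, 10.17 and 9.81 in AIRE1, against 9.08, 9.54 and 9.50 in AIRE2 and 9.31, 9.38 and 9.29 in NC. AIRE1 lay above AIRE2 and NC on every array, by 0.79 ± 0.14 from NC and 0.74 ± 0.14 from AIRE2, and with HOXD10 it formed a pair of HOXD genes that rose. HOXC4 was distinct and lower, at -0.78 and -0.36. Of 15 kidney developmental genes, 8 were lower and 1 higher. EYA1, a co-activator of nephron progenitors, had 6.92, 7.0 and 6.76 in AIRE1, against 8.14, 7.65 and 7.88 in AIRE2 and 7.42, 7.39 and 7.34 in NC. It fell in AIRE1 and rose in AIRE2. IRX3 was also distinct and lower (-0.67 and -0.39). Of 23 neuronal genes, 6 were higher and 7 lower. The neural cell adhesion molecule NCAM1 had 7.26, 6.75 and 7.33 in AIRE1, against 8.02, 7.48 and 8.01 in AIRE2 and 8.04, 7.73 and 8.30 in NC. Its AIRE1 arrays lay under all NC and AIRE2 arrays, at -0.91 ± 0.07 and -0.73 ± 0.07. The microtubule protein MAP1B was at -0.61 and -0.55, and the growth cone protein GAP43 stood at 0.98 and 0.38. The GAP43 call against AIRE2 was lost without the block (adjusted p = 0.267), under median centring and without any 1 AIRE1 array.

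Metabolic, stress and cell-cycle lists gave few AIRE1-distinct members. HMGCS1, an early enzyme of cholesterol synthesis, was at -0.94 from NC and -0.66 from AIRE2, 1 of 7 lower members among 18. The hypoxia-linked genes EGLN3 (-0.77 and -0.51) and KDM3A (-0.36 and -0.36) were distinct and lower, in a list with 2 higher and 6 lower of 32. The p53-linked genes GADD45B (0.82 and 0.57) and TP53I3 (1.28 and 0.53) were distinct and higher, in a list with 3 higher and 3 lower of 20. Neither was called against AIRE2 without the block, and the TP53I3 call was also lost without any 1 AIRE1 or NC array. Of 28 core histone genes, 15 were higher and none lower than in NC, and H2BC11 alone was distinct; histone probes may read several near-identical genes. Of 38 cell-cycle genes, 4 were higher and 3 lower, near the shares of all genes (12.6% and 10.2%), and CCND1 alone was distinct. Myelin basic protein (MBP), a brain antigen, was the distinct member of 12 peripheral tissue antigens (0.99 and 0.67), of which 7 were higher and 1 lower than in NC. These 12 were the genes past the detection filter, of 40 on the array, and 4 of them were undetected in NC. Those 4 were measured only through another line, which favours a higher call. The list's median was 0.48, or 0.32 with undetected members at their bound. NOTCH members JAG1 (lower) and NRARP (higher), and the unfolded protein response member SDF2L1 (higher), were the distinct members of lists with 3 higher and 5 lower of 21, and with 5 higher and 0 lower of 26. Without the block no unfolded protein response gene was called against NC, and both SDF2L1 calls were also lost without AIRE1 replicate 1 or AIRE1 replicate 3. The detoxification list had 9 higher and 1 lower of 31, with ALDH1A1 distinct. Lists of lipid uptake, heat shock, metallothionein, NF-kappa-B, cancer-testis and AIRE partner genes held none. Their counts against NC were 9 higher and 2 lower of 27, 7 and 0 of 23, 2 and 0 of 7, 2 and 1 of 12, 6 and 0 of 9, and 1 and 1 of 32. The single higher AIRE partner gene is AIRE itself. The 9 cancer-testis genes were those past the detection filter, of 36 on the array, and 2 of them were undetected in NC, with the same limit.

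**Figure D4:**
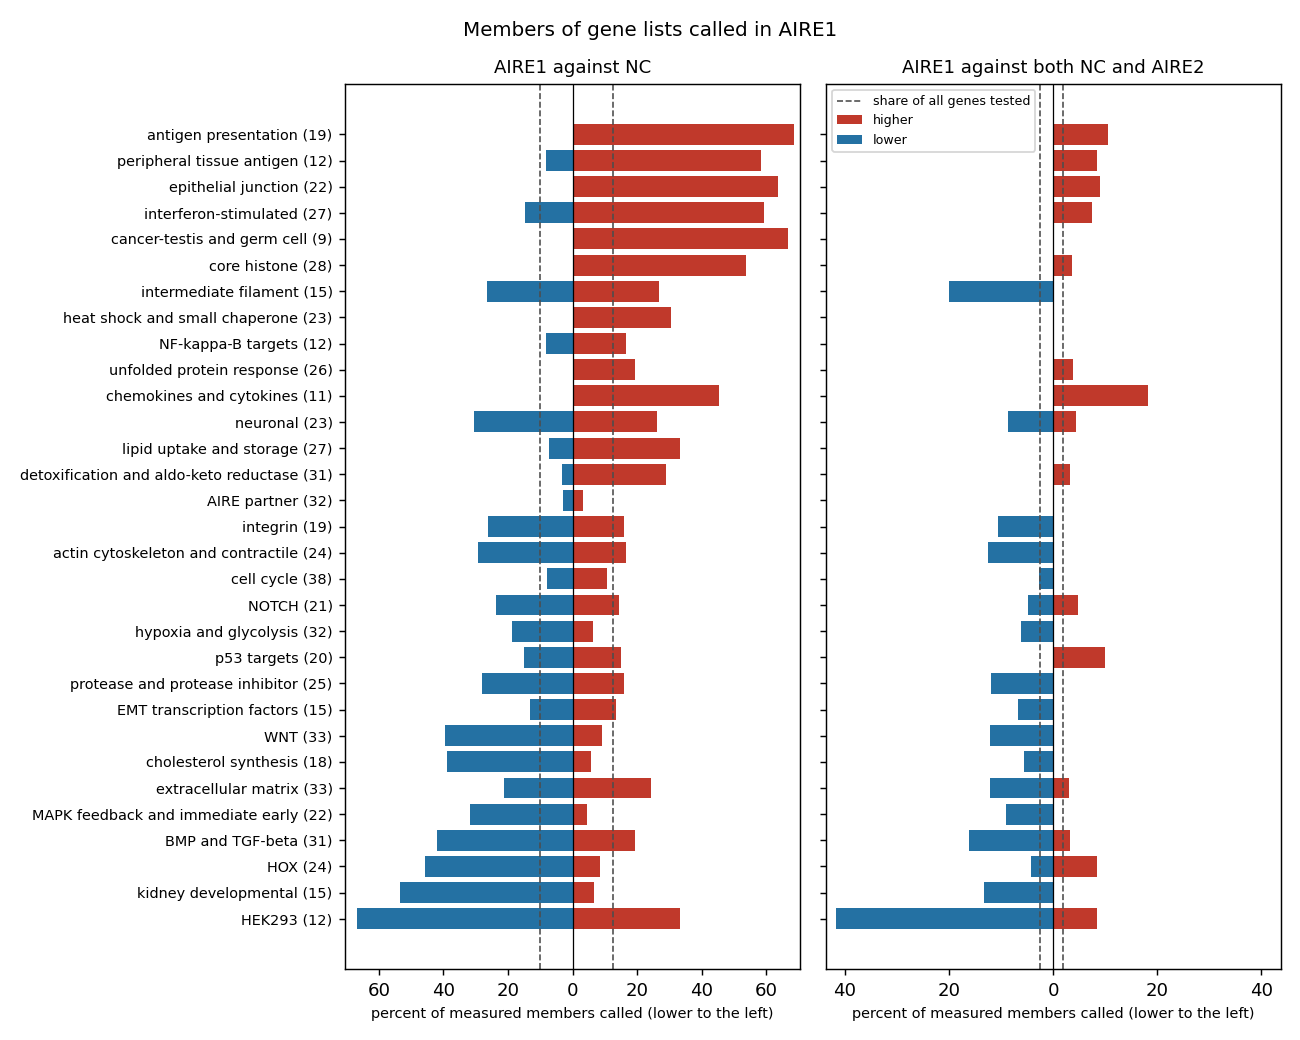
Percent of measured members (number in brackets) called higher (red, to the right) or lower (blue, to the left) in AIRE1 than in NC (left panel), and than in both NC and AIRE2 (right panel), for lists with 9 or more measured members, with dashed lines at the share over all 11947 genes. Antigen presentation, cancer-testis, epithelial junction, interferon-stimulated, peripheral tissue antigen and core histone genes have the longest bars on the higher side against NC. Members undetected in NC were measured only through another line, which favours a higher call. HEK293 and intermediate filament genes stand out on the lower side against both lines.

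A set of 32 genes moved in opposite directions in the clones, 21 (0.176%) higher in AIRE1 and lower in AIRE2 than in NC, and 11 (0.0921%) the reverse. Both counts use the same NC arrays. MAP7D2, a microtubule-binding protein, had 7.66, 7.46 and 8.21 in AIRE1, against 7.01, 5.79 and 6.94 in AIRE2 and 7.26, 6.68 and 7.39 in NC. PARM1, a mucin-like membrane protein, had 7.05, 6.88 and 7.10 in AIRE1, against 8.37, 7.87 and 8.24 in AIRE2 and 7.69, 7.09 and 7.69 in NC. For MAP7D2 the AIRE1 arrays lay above NC and the AIRE2 arrays overlapped NC, and for PARM1 the AIRE2 arrays lay above NC and the AIRE1 arrays overlapped it. MAP7D2 was 0.67 in AIRE1 and -0.53 in AIRE2 against NC, and PARM1 -0.48 and 0.67. The glycolipid-synthesis gene GBGT1 (0.57 and -0.33) and the channel PANX2 (0.45 and -0.45) followed MAP7D2 in direction. The cilia gene CFAP263 (-0.62 and 0.28) and the co-chaperone DNAJC21 (-0.56 and 0.33) followed PARM1. Without the block 3 genes were opposite, and with median centring 2.

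Detection itself separated the lines for a small set. On all 3 AIRE1 arrays and no NC array, 249 of 11947 genes tested were detected, and 13 genes showed the reverse. The log2 detection limit was 4.80 to 4.85 on AIRE1 arrays and 4.93 to 4.95 on NC arrays, which favours detection in AIRE1. For 29 of the 249, no AIRE2 array detected the gene either, and 21 of those were undetected in AIRE-D312A too. These 21 passed the detection filter through AIRE1 alone, so a higher level there was largely fixed by the selection. Most lay just above the limit, so that their bounds are near 1-fold, and some are under it. CASKIN1 had a mean of 4.84 in AIRE1 and 4.85 in NC. The clearest, named after their values were seen, were PLAC9, the receptor guanylate cyclase GUCY2D at least 1.32-fold above NC, and the vessel factor ANGPT2 at least 1.3-fold. On no AIRE1 array but on every other array, 4 genes were detected, TNFRSF10A, DDX19B, KLHL35 and CHST8. DDX19B, an RNA helicase of mRNA export, was at least 1.76-fold below NC and 1.55-fold below AIRE2. CHST8 was lower than in NC but not called against AIRE2.

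The AIRE1-distinct genes were not spread evenly over the chromosomes. Gene order was taken from RefSeq, and windows of 25 neighbouring measured genes were inspected with no test. The start of chromosome 5 stood out, from CCDC127 to DHX29, a stretch of 102 measured genes whose limits were set after the values were seen. Its median was -0.37 against NC and -0.47 against AIRE2, while AIRE2 lay at 0.03 and AIRE-D312A at -0.02 from NC. In this stretch 58 genes were lower and 7 higher than in NC, and 52 AIRE1-distinct lower genes lay there (51.0% of its genes, against 2.20% of all other genes). The remaining 428 genes of chromosome 5 had a median of 0.05 against NC. Without the block, 24 genes of the stretch were AIRE1-distinct and lower, of 57 in all. With median centring its medians were -0.24 and -0.39. BASP1, MYO10, TRIP13, ZDHHC11, NKD2 and HMGCS1, described above, lie in it. So does PTGER4, a prostaglandin receptor, which had 4.82, 4.99 and 5.33 in AIRE1, against 6.20, 5.68 and 6.10 in AIRE2 and 5.77, 5.51 and 5.87 in NC. Its AIRE1 arrays lay under all NC and AIRE2 arrays. The succinate dehydrogenase subunit SDHA stood at -0.65 from NC and -0.69 from AIRE2, and the ubiquitin ligase subunit SKP2 at -0.48 and -0.53. The cadherins CDH10 and CDH12 rose within the stretch. A window of 25 genes can reach past the lowered genes, and the end of the stretch, from PARP8 to DHX29, did not share the fall. In that end part, ISL1 (-0.28) and ITGA2 (-0.32), described above, were the only genes called lower than in NC. Among the others, ITGA1 stood at 0.12, NDUFS4 at 0.20 and DHX29 at 0.06. DNA copy number was not measured, and its part in these values was not tested.

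The AIRE1-distinct higher genes were frequent on chromosomes 6, 7, 15 and 22. These 4 chromosomes held 121 of the 232, but only 1885 of the 11789 measured genes with a chromosome. On chromosomes 7, 15 and 22 AIRE1 lay near NC and AIRE2 below it. The chromosome 7 medians were 0.03 for AIRE1 and -0.27 for AIRE2 against NC, those of chromosome 15 0.03 and -0.24, and those of chromosome 22 0.0089 and -0.18. On chromosome 6 as a whole the medians were 0.04 for AIRE1 and -0.02 for AIRE2. Its runs BCKDHB to LOC728098 (54 genes) and RMND1 to PDCD2 (52) were delimited after the values were seen. In each, AIRE1 lay at 0.04 and AIRE2 at -0.23 from NC, and they held 5 and 8 of the chromosome's 34 AIRE1-distinct higher genes. AIRE-D312A lay at -0.21 and 0.03 in these runs, and at -0.26 in the chromosome 15 run from ENTREP2 to RPS27L. Genes such as EN2 on chromosome 7 and FES on chromosome 15 exceeded NC by more than the chromosome's median. The other 111 lay elsewhere or had no chromosome in the table, among them CPXM1, TNFRSF14, HTATIP2 and KCTD8, and 260 of the lower genes lay outside the chromosome 5 stretch, among them TNFRSF10A, VIM, ZEB2 and the 4 ID genes.

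**Figure D5:**
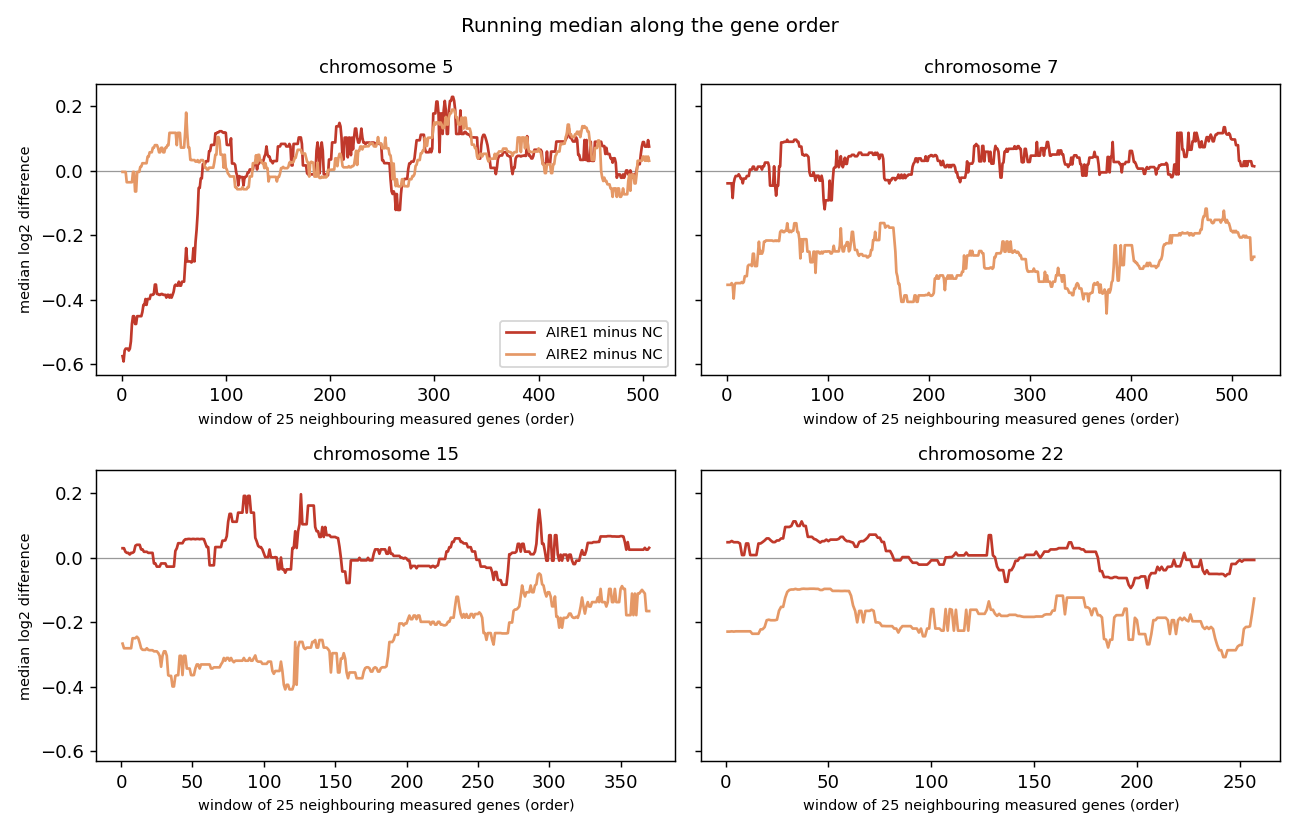
Median log2 difference from NC in running windows of 25 neighbouring measured genes, for AIRE1 (red) and AIRE2 (orange), by window order along chromosomes 5, 7, 15 and 22. The first windows of chromosome 5 lie below 0 in AIRE1 alone, and on chromosomes 7, 15 and 22 AIRE1 stays near 0 while AIRE2 lies below it.

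Promoters of the strongest AIRE1-distinct genes were read for the TATA box letters TATAAA, on both strands. CPXM1 and ID1 are shown because one rose, the other fell, and both hold a match. Sequences are from RefSeq (GRCh38.p14), the 250 bases before the start, 5′ to 3′ on the gene's strand, with matches in capitals.
CPXM1, chr20:2800628-2800877, minus strand: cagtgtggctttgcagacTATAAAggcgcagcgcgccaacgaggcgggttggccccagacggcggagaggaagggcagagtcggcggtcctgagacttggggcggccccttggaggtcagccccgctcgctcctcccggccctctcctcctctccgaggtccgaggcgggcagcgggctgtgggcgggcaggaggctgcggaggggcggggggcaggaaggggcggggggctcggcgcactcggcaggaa
ID1, chr20:31605039-31605288, plus strand: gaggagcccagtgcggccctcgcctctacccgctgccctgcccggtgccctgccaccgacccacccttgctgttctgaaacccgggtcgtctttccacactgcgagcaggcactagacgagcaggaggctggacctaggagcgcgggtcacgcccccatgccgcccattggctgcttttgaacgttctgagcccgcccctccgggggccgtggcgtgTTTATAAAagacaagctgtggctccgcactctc
In ID1 the match starts at position -31 on the gene's strand and overlaps one on the other strand, and in CPXM1 it starts at -232. TATAAA was found in 16 of 190 AIRE1-distinct higher genes (8.42%), 18 of 247 lower genes (7.29%), 5.49% of tested genes and 11.1% of all promoters in the table. The 250 bases before TNFRSF14, HTATIP2, VIM and MYO10 held neither motif.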

How the data were processed

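RNA of each line was labelled (250 ng of input, per the labels' protocols) and hybridised to Illumina bead arrays. The software is BeadStudio 3.1.3.0, per the submitters' processing notes. The deposited files hold, per the file headers, an average intensity and a detection p-value for each of 48701 probes. The intensity is linear, without background subtraction or normalisation between arrays, as its values show.

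Here negative-control parameters were derived from the detection p-values, and normexp with an offset of 16, quantile normalisation over 12 arrays and log2 followed. For AIRE-D312A replicate 3 they were predicted from the 40th percentile of intensity (at least 98.9% agreement in detection on the other arrays). A probe was kept when its detection p was under 0.01 on each of the 3 arrays of at least 1 line, with the brightest probe per gene, which left 11947 of 19304 named genes. Of all probes, 24782 had 1 gene symbol in the platform annotation and 23919 none. limma 3.58.1 (R 4.3.3) fitted a mean per line and the replicate number as a block, with Benjamini-Hochberg adjustment, and was tested on simulated data.

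Replicate numbers come from the file names. After subtraction of the line means, arrays correlated at 0.333 to 0.848 in all 18 same-numbered pairs and at -0.744 to 0.529 in 36 others, so the numbers were taken to pair arrays. A gene below detection on every array of one line has a bound ("at least N-fold"), the bright line's mean against the higher of the lowest detected signal and the probe's own. Named genes were AIRE, the 12 highest and 12 lowest against NC, 15 AIRE1-distinct genes each way, up to 10 opposite genes, up to 4 called members per list, and 6 genes of a positional run. Other genes named were chosen after their values were seen. The members and lists were chosen with earlier results of these data known. The number of arrays limits the precision.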

Additional observations from a re-analysis of the deposited data

Results flagged for a closer look

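The AIRE1 and AIRE2 clones, set against the same NC arrays, differed by a direct test (limma, adjusted p) for 232 genes that AIRE1 had higher than both lines and for 2.61% of genes tested that it had lower than both, and 32 genes were called in opposite directions in the clones. The AIRE1 minus AIRE2 log2 differences of the 15 strongest higher genes were CPXM1 1.94, ADGRB3 1.74, FAM162B 1.47, TNFRSF14 1.40, HTATIP2 1.40, PLAC9 1.30, KCTD8 1.29, RAC2 1.18, FAM111A 1.16, CDH10 1.10, HLA-DRA 1.10, ALDH1A1 1.08, EN2 1.18, FES 1.01 and LMO3 0.85. Those of the 15 strongest lower genes were TNFRSF10A -2.53, TNFRSF10A-DT -2.06, CUX2 -1.18, BASP1 -1.12, VIM -1.07, AMOT -1.26, SORCS1 -0.97, ZDHHC11 -0.95, ADAMTS1 -0.95, MYO10 -0.91, PRSS23 -0.91, SERPINF1 -0.90, ID1 -0.87, TRIP13 -0.86 and DEPP1 -0.97. Those of the other opposite genes were MAP7D2 1.20, PARM1 -1.15, KRT18 -1.04, EYA1 -0.996, IFITM3 0.91, CFAP263 -0.90, GBGT1 0.90, PANX2 0.89 and DNAJC21 -0.88. These are fitted values; where a gene was undetected on every array of a line (ADGRB3, PLAC9 and TNFRSF10A here), the bounds given with the results hold instead.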

How the results depend on the processing

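Without the replicate block, AIRE1 had 623 higher and 366 lower genes against NC, 153 and 122 against AIRE2, and 46 and 57 AIRE1-distinct, with 3 lower ones 2-fold in both contrasts and 3 opposite genes. Median centring, which puts the median of all genes at 0.14 against NC, gave 293 genes lower than in NC, 461 higher and 205 lower than in AIRE2, 79 distinct lower and 2 opposite. Fitting only the lines compared gave 396 higher and 318 lower than in AIRE2, and 124 and 168 distinct. Without background correction 3 distinct higher genes passed 2-fold in both, and without the AIRE-D312A arrays 21 genes were opposite. Without the replicate 2 arrays of every line, 11 distinct lower genes passed 2-fold and 18 were opposite. Leaving out 1 array at a time gave 1005 to 1735 higher and 756 to 1458 lower than NC, 454 to 869 higher and 297 to 783 lower than AIRE2, 112 to 226 distinct higher and 149 to 309 lower, 10 to 14 and 4 to 10 of these 2-fold in both, and 11 to 36 opposite. The counts fell most without AIRE1 replicate 1 (112 and 149 distinct), AIRE1 replicate 3 (135 and 195) and AIRE1 replicate 2 (142 higher). Counts lower than NC were 790 without NC replicate 1 and 756 without NC replicate 3, and 585 higher and 427 lower than AIRE2 were called without AIRE2 replicate 3. Of 248 results on single genes, 87 lost their call without the block and 28 under median centring. In the authors' deposited value table, with 1 value per line, PANX2 (-0.0799), CALD1 (-0.0214) and XBP1 (-0.126) reversed against NC, while of 245 values 61 moved by less than the spread and 181 by more. Of 1122 list medians under alternatives, 112 moved by more than the spread and 77 changed sign. The cause of these changes was not tested. Signals near background limit dim genes to bounds.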
